A study of Drosophila melanogaster with 19 samples.

Results

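The genes described here were 151 protein-coding Drosophila genes that the deposited table listed under a CG number and whose transcripts were highest late in cell cycle 14. They were chosen from the condition means by their level in control embryos. Of 17735 genes in the table, 6589 carried a CG number as their name, 1666 of those reached 10 CPM (the reads of a gene scaled to 1000000 assigned reads of the embryo) in late cycle 14 (C14L), 304 of these were also at least 1.5 higher in C14L than in C12 on the log2(CPM + 1) scale, and 151 were at least 1.5 higher than in early cycle 14 (C14E) too. A last limit, that C12-70min should not exceed the highest control level by more than 1 on the log2 scale, removed 0 genes. All 151 matched the annotation, in which 23 now carry a name other than their CG number.

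Arrested embryos were injected with double-stranded RNA against the mitotic cyclins A, B and B3, which stops the early cycles in interphase 12, and were collected 15, 30, 50 and 70 min after mitosis 11 (C12-15min, C12-30min, C12-50min and C12-70min). Control embryos received no injection and were collected in cycles 12 and 13 (C12 and C13) and early and late in cycle 14 (C14E and C14L). Embryos of both kinds carried the histone fusion H2AvD-RFP, used to follow the nuclei. There were 2 embryos per arrested condition, 3 each in C13 and C14E, 2 in C14L and 3 labelled C12, of which the deposited C12 mean held 2. The controls had no mock injection, so injection and cyclin loss cannot be told apart, and the C14L embryos were older after mitosis 11 than the C12-70min embryos, so arrest and age cannot be told apart either.

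The early fly embryo divides its nuclei in rapid synchronous cycles on RNA and protein laid down by the mother. During cycles 12 to 14 the maternal transcripts are cleared in steps while the zygotic genome is switched on, and most of that switch falls in the long interphase 14, the mid-blastula transition. A gene can be supplied by the mother, lost and transcribed again from the zygotic genome, or can be silent until the zygote transcribes it. The study asked which of these changes still take place when the cycles stop early.

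The table gives only the mean of each condition, but its decimals fix the whole reads of each embryo for most values. Recovered assigned reads were 39242409 to 52804462 per embryo in the 8 arrested embryos and 35957712 to 57998963 in the 10 control embryos behind the means. Single embryos were recovered for all 151 genes in C12, C12-15min, C12-30min and C12-50min, for 150 in C12-70min, 148 in C14L, 127 in C13 and 49 in C14E. Where 2 values are given for a condition, the embryo with more reads comes first. CycA, a target of the injection, had 14.2, 13.4 and 28.8 CPM at C12-30min, C12-50min and C12-70min, but 1799 CPM in the embryos labelled C12-15min, against 2626 CPM in C12, so the libraries labelled C12-15min carried cyclin RNA near the control level. Whether these embryos were arrested is not shown by the RNA, and their times are given below as labelled, in minutes after mitosis 11. Genes of the egg shell (5 genes) summed to at most 2.78 CPM and those of late embryonic muscle and cuticle (4 genes) to under 2 CPM in any condition. Of the 6 genes listed as late cycle 14 markers, 5 were highest in C14L. Of these, pros had means of 1.81, 35.9, 54.3 and 135 CPM at 15, 30, 50 and 70 min and 203 CPM in C14L. Its means at 30 and 50 min lay mostly in 1 embryo each, with 69.6 and 2.31 CPM at 30 min and 94.1 and 14.4 CPM at 50 min. The means of en were at most 4.31 CPM, of wg 9.29 CPM, of abd-A 5.54 CPM and of sim 1.56 CPM in any arrested condition. In C14L these 4 had 87.2, 118, 46.4 and 57.8 CPM. The sixth, trh, was not a late marker here, with 17.3 CPM at C12-70min and 1.09 CPM in C14L.

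The median member had 4.15, 1.69, 2.53 and 5.14 CPM at 15, 30, 50 and 70 min after mitosis 11, against 3.04, 1.84, 7.24 and 36.2 CPM in C12, C13, C14E and C14L. Summed over the members, this came to 1397, 607, 746 and 1398 CPM in the arrested series and to 1343, 818, 2087 and 9383 CPM in the controls. C14L was the highest of the 8 conditions for all 151, which the choice of members largely fixes. C12-70min was the highest arrested condition for 78 members, C12-15min for 66 and C12-50min for 7, and C12-30min was the lowest for 73. The values of C12-15min rest on unlike embryos, in which the members summed to 1957 and 837 CPM. These libraries also held cyclin RNA near the control level, so the step from 15 to 30 min is not shown to lie within an arrest.

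**Figure D1:**
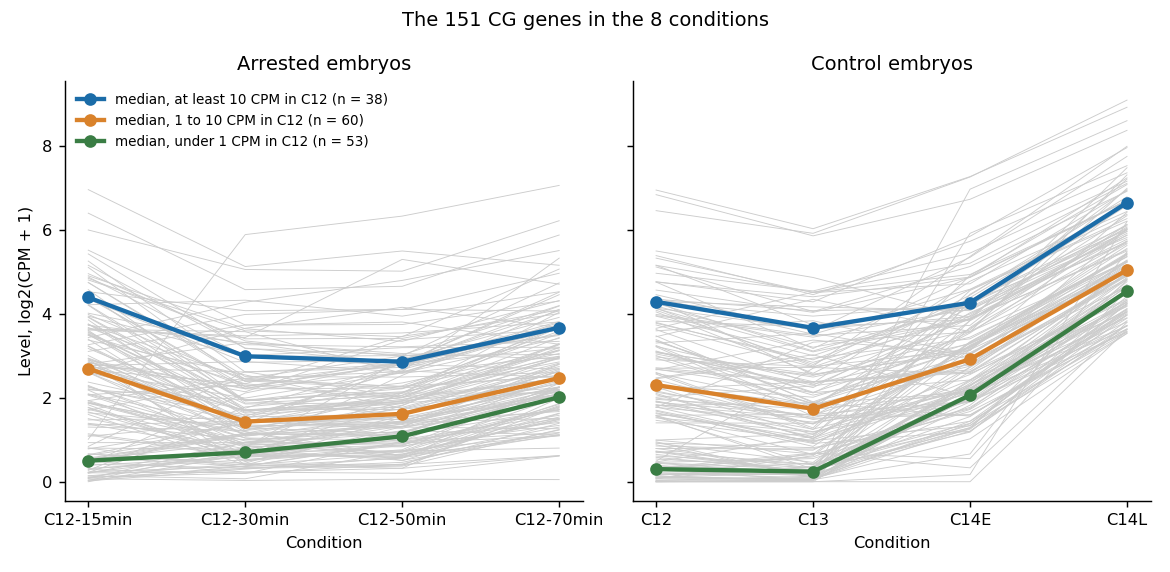
Levels of the 151 genes on the log2(CPM + 1) scale, arrested conditions on the left and controls on the right. Grey lines are genes and coloured lines are medians of the genes with at least 10 CPM (n = 38), 1 to 10 CPM (n = 60) and under 1 CPM (n = 53) in C12. The medians of the first 2 sets are lowest at 30 and 50 min after mitosis 11 and in C13. That of the third is higher at each later arrested time, from 15 to 30 min through 1 embryo, and is lower in C13 than in C12.

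The members had very different stocks of RNA in cycle 12. In C12, 38 members had at least 10 CPM, 60 had 1 to 10 CPM and 53 had under 1 CPM. The first set had median levels of 19.9, 6.91, 6.24 and 11.7 CPM at 15, 30, 50 and 70 min after mitosis 11, with 98.9 CPM in C14L and 18.4 CPM in C12. The second set had 5.44, 1.69, 2.07 and 4.53 CPM, with 31.8 CPM in C14L and 3.92 CPM in C12. The medians of both sets were lowest at 30 or 50 min. For the second set this rests on 1 embryo labelled C12-15min, since the medians of its 2 embryos were 7.64 and 1.64 CPM. The third set had 0.413, 0.626, 1.11 and 3.04 CPM, with 22.1 CPM in C14L and 0.229 CPM in C12, and was higher at each later time. Its step from 15 to 30 min rests on 1 embryo. The medians of its 2 embryos were 0.287 and 0.255 CPM at C12-15min and 1.03 and 0.172 CPM at C12-30min.

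The 10 members with the largest margin of C14L over both C12 and C14E included genes that were close to silent in every other condition. CG45263 (3R, 8364328 to 8477617, minus strand) had 63.8 and 79.7 CPM in C14L, against 0.0219, 0.159 and 0.191 CPM in C14E and 0 reads in both C12 embryos. At C12-70min it had 1.29 and 1.20 CPM. CG17716 (tei, 2R, 13623044 to 13749367, plus strand), an immunoglobulin-superfamily cell surface protein, had 43.2 and 43.7 CPM in C14L, against 0.438, 0.546 and 0.765 CPM in C14E and 0.138 and 0.0435 CPM in C12. At C12-70min it had 2.61 and 2.41 CPM. Both genes span over 100 kb, and their embryos did not overlap between C14L and any other condition. CG5171 (2L, 7401335 to 7404727) had 26.8 and 18.8 CPM in C14L and 0.517 and 0 CPM in C12, and CG32053 had 14.6 and 11.2 CPM in C14L and 0.103 and 0 CPM in C12. CG34224, a single-exon gene of 473 bases (2R, 11237172 to 11237644), had 172 and 141 CPM in C14L and 3.97 and 0.871 CPM in C12. CG5270 (Sptz) had 73.4 and 55.5 CPM in C14L and 2.55 and 5.27 CPM in C12. These margins chose the genes and are given as a description.

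CPM is not divided by gene length, so it ranks reads and not transcripts. The 10 members with the most reads in C14L were CG13784 (539 CPM), CG42232 (479 CPM), CG34383 (383 CPM), CG42684 (328 CPM), CG10011 (251 CPM), CG32486 (247 CPM), CG4554 (212 CPM), CG10283 (182 CPM), CG32982 (176 CPM) and CG14767 (162 CPM). Of these, CG34383, CG10283 and CG32982 were under 1 CPM in C12 and the other 7 were above 10 CPM there. CG34383 is kramer (kmr), a pleckstrin-homology domain protein of the PLEKHA family, and CG42684 is raskol, a Ras GTPase-activating protein.

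The limits of the rule passed through a continuous distribution. At the floor of 10 CPM, CG34039 and CG13293 stood just inside with 10.5 and 10.6 CPM in C14L, and CG42255 and CG2906 just outside with 9.89 and 9.73 CPM. At the margin of 1.5 over C12, CG32104 and CG8414 were inside at 1.52 each and CG18094 and CG31211 outside at 1.49 each. At the same margin over C14E, CG3184 and CG7102 were inside at 1.51 and 1.53 and CG31648 and CG1492 outside at 1.47 and 1.46.

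In 3 of the 4 arrested conditions the 2 embryos stood apart in these genes. In embryos labelled C12-15min the members summed to 1957 CPM in the embryo with 48716332 reads and to 837 CPM in that with 39242409 reads. There, 115 members were higher in the embryo with more reads and 35 in the other, with a median difference of 1.17 on the log2(CPM + 1) scale, against 0.28 for the 4925 recovered genes with at least 10 CPM. The gap lay in the members with a stock in C12. Of those with at least 10 CPM in C12, 33 of 38 were higher in the embryo with more reads (medians 32.4 and 10.9 CPM), and of those with 1 to 10 CPM, 54 of 60 were (medians 7.64 and 1.64 CPM). Of those under 1 CPM in C12, 28 of 53 were higher in it and 24 in the other. The 5 late cycle 14 markers were higher in the embryo labelled C12-15min with fewer reads, among which pros had 0 and 3.62 CPM, en 0 and 2.60 CPM and wg 0.123 and 5.10 CPM. Their part in the results that rest on C12-15min was not tested.

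At C12-30min the members summed to 794 and 420 CPM, and 129 of 151 were higher in the first of these embryos, among them 50 of the 53 members under 1 CPM in C12. At C12-50min they summed to 995 and 497 CPM, with 136 of 151 higher in the first. Of recovered genes with at least 10 CPM in the condition, 1579 of 4336 were higher in the first embryo at C12-30min and 2647 of 4143 at C12-50min. The C12-70min embryos were close to each other, with sums of 1186 and 1347 CPM over 150 members and a median difference of -0.06, and so were the C14L embryos, with a median difference of 0.23. The 2 control C12 embryos differed more, by a median of -0.37. There, 34 members were higher in the embryo with more reads and 112 in the other, where 1524 and 3339 of 4863 recovered genes with at least 10 CPM were. The gene CG34383 showed a wide gap at C12-30min, with 115 CPM in one embryo and 0.884 CPM in the other.

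**Figure D2:**
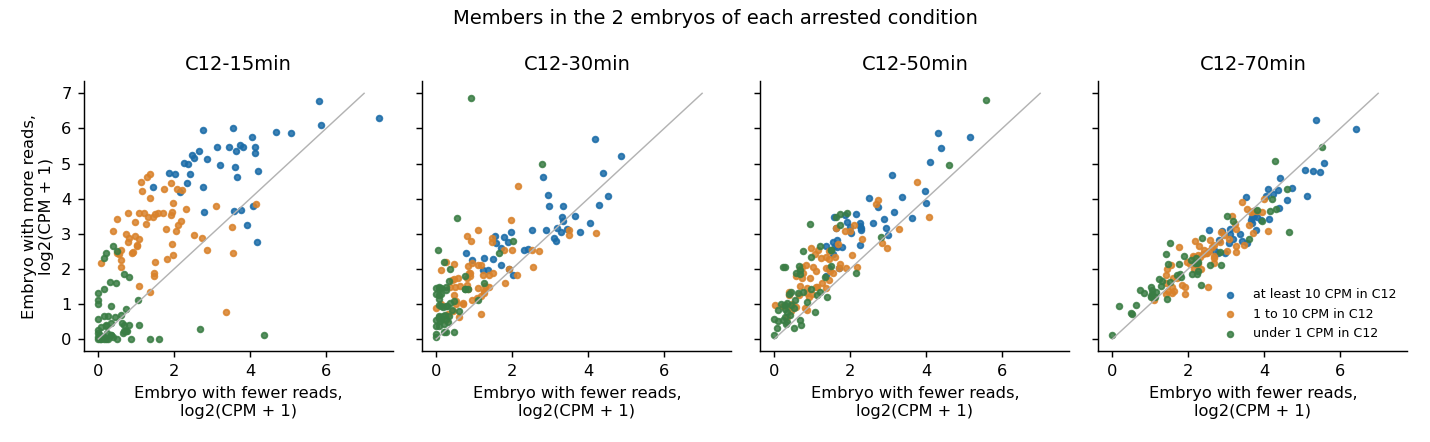
Each member in the 2 embryos of every arrested condition, the embryo with more reads on the vertical axis and that with fewer on the horizontal axis, both log2(CPM + 1), coloured by level in C12. At C12-15min, C12-30min and C12-50min most points lie above the line of equal level (115, 129 and 136 of 151), and at C12-70min they lie on both sides (65 above, 85 below, of 150).

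Against the libraries labelled C12-15min, which held cyclin RNA near the control level so that the step is not shown to lie within an arrest, the C12-50min means of members with little or no RNA in C12 were mostly higher or within the fold limit, and those of members with a stock in C12 were mostly lower. By condition means and a fold change above 1.5 on the log2(CPM + 1) scale, 32 of the 151 were higher at C12-50min than in embryos labelled C12-15min, where 8.59% of all genes were, and 76 were lower, where 17.6% were. Among genes with at least 10 CPM in some condition, as all members have, the shares were 14.3% higher and 44.3% lower. Of the 53 members under 1 CPM in C12, 27 were higher and 3 lower. Of the 60 with 1 to 10 CPM, 3 were higher and 40 lower, and of the 38 with at least 10 CPM, 2 were higher and 33 lower. With the pseudocount of 1, a level near 0 leaves no room to be called lower. The shares of all genes cut by their C12 level in the same way were not counted. The split by stock is thus a description and is not shown to be particular to the members. Single embryos overlapped more often: in 30 members both C12-50min embryos were above both embryos labelled C12-15min and in 34 both were below. These are 19.9% and 22.5% of the members, near the 19.6% and 17.1% of all recovered genes, and below the 26.4% and 45% of recovered genes with at least 10 CPM in some condition. Of those 30 members, 28 had under 1 CPM in C12, and of the 34 lower ones, 33 had 1 CPM or more. The count of lower members rests on 1 library: without the embryo labelled C12-15min with more reads it was 22, and without any other single embryo 62 to 89. The count of higher members was 30 to 46 without 1 embryo, except for 21 without the C12-50min embryo with more reads.

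A limma fit on the recovered embryos tested 148 members among 6976 genes. It called 6 of the 148 higher at C12-50min than in embryos labelled C12-15min at a Benjamini-Hochberg adjusted p under 0.05, where 3.18% of genes tested were higher. It called 13 of the 148 lower, where 23.1% of genes tested were lower. The share of members called higher was thus near that of all genes tested, and the share called lower was well under it. At an unadjusted p under 0.05, 8.11% of members were higher and 13.5% lower, against 8.67% and 31.6% of genes tested. The members that rose were CG32982 (log2 difference 2.61 ± 0.636 SE, adjusted p = 0.0180), CG16758 (2.45 ± 0.599, adjusted p = 0.0181), CG16791, CG5618, CG5022 and CG15431, the last 4 with limma differences of 2.26 to 1.29. Without the embryo labelled C12-15min with more reads the calls were 0 higher and 0 lower, and without that with fewer reads 9 and 59. Without the C12-50min embryo with more reads they were 0 and 8, and without that with fewer reads 3 and 0.

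CG32982 (2L, 9125737 to 9163721, plus strand) had 10.7 and 2.30 CPM at C12-50min, against 0.0411 and 0 CPM in embryos labelled C12-15min. It had 198 and 155 CPM in C14L and 0 reads in both C12 embryos. CG16758 (3L, 2499372 to 2503606, minus strand) had 6.43 and 6.01 CPM at C12-50min, against 0.123 and 0.561 CPM in embryos labelled C12-15min. Both genes started from near 0 and their embryos did not overlap between these times. CG16791 (aus) had 8.44 and 2.32 CPM against 0.0821 and 0.255 CPM. CG5022 is Frmd5, a FERM-domain protein of the cell cortex, with 2.42 and 1.52 CPM at C12-50min against 0.0821 and 0.255 CPM in embryos labelled C12-15min. CG5618 had 4.84 and 1.80 CPM against 0.369 and 0.255 CPM, and CG15431 had 3.21 and 1.80 CPM against 0.164 and 0.688 CPM. All 6 were under 1 CPM in C12.

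The largest difference of condition means belonged to kramer (CG34383, 3R, 13715207 to 13764667, plus strand), 5.30 on the log2 scale. It had 111 and 46.7 CPM at C12-50min, against 0 and 2.04 CPM in embryos labelled C12-15min, and 0.172 and 0.0871 CPM in C12. Its mean at C12-70min was 132 CPM, for which single embryos were not recovered, so it was not in the limma fit. CG9279, whose name Dred marks a relative of the dynactin subunit p150, had 10.2 and 2.08 CPM at C12-50min against 0.328 and 1.10 CPM in embryos labelled C12-15min, a difference of means of 2.06, and is annotated wholly inside another gene model of the same strand.

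The 13 members that fell in the limma fit were CG14767, CG6758, CG7956, CG30183, CG11377, CG4291, CG8818, CG2246, CG13185, CG42684, CG4676, CG14544 and CG7656, with differences of -2.44 to -1.33. CG14767 (2R, 8718017 to 8723839, minus strand) had 10.8 and 3.43 CPM at C12-50min, against 58.6 and 24.8 CPM in embryos labelled C12-15min, a log2 difference of -2.44 ± 0.498 (SE, limma adjusted p = 0.0114). It had 35.8 and 45.7 CPM in C12. CG42684 (raskol, X, 17710144 to 17752007, plus strand) had 32.1 and 16.3 CPM at C12-50min, against 110 and 55.3 CPM in embryos labelled C12-15min and 118 and 107 CPM in C12. In both genes the C12-50min embryos were below all embryos labelled C12-15min and all C12 embryos, and the means at C12-30min were already as low, at 7.98 CPM for CG14767 and 22.8 CPM for raskol. CG7956 (sp3, related to the human phosphoinositide phosphatase INPP5F) had 8.40 and 3.75 CPM at C12-50min, against 53.2 and 15.5 CPM in embryos labelled C12-15min. CG6758 (Fbxo42), an F-box protein of the kind that picks substrates for ubiquitin ligases, had 0.910 and 0.174 CPM against 11.2 and 2.83 CPM. An antisense transcript annotated over 70.9% of the exon bases of CG6758 was listed at 0 CPM in C14L.

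At the other end, 5 members had almost equal means at these times. CG34025, CG9286, CG5270, CG12375 and CG5665 differed by -0.03 to -0.01 on the log2 scale, and of these CG9286 had 5.01 and 6.81 CPM at C12-50min against 6.30 and 5.66 CPM in embryos labelled C12-15min. For CG12375 the equal means hid unlike embryos, 1.43 and 0.304 CPM at C12-50min and 1.70 and 0.102 CPM in embryos labelled C12-15min.

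**Figure D3:**
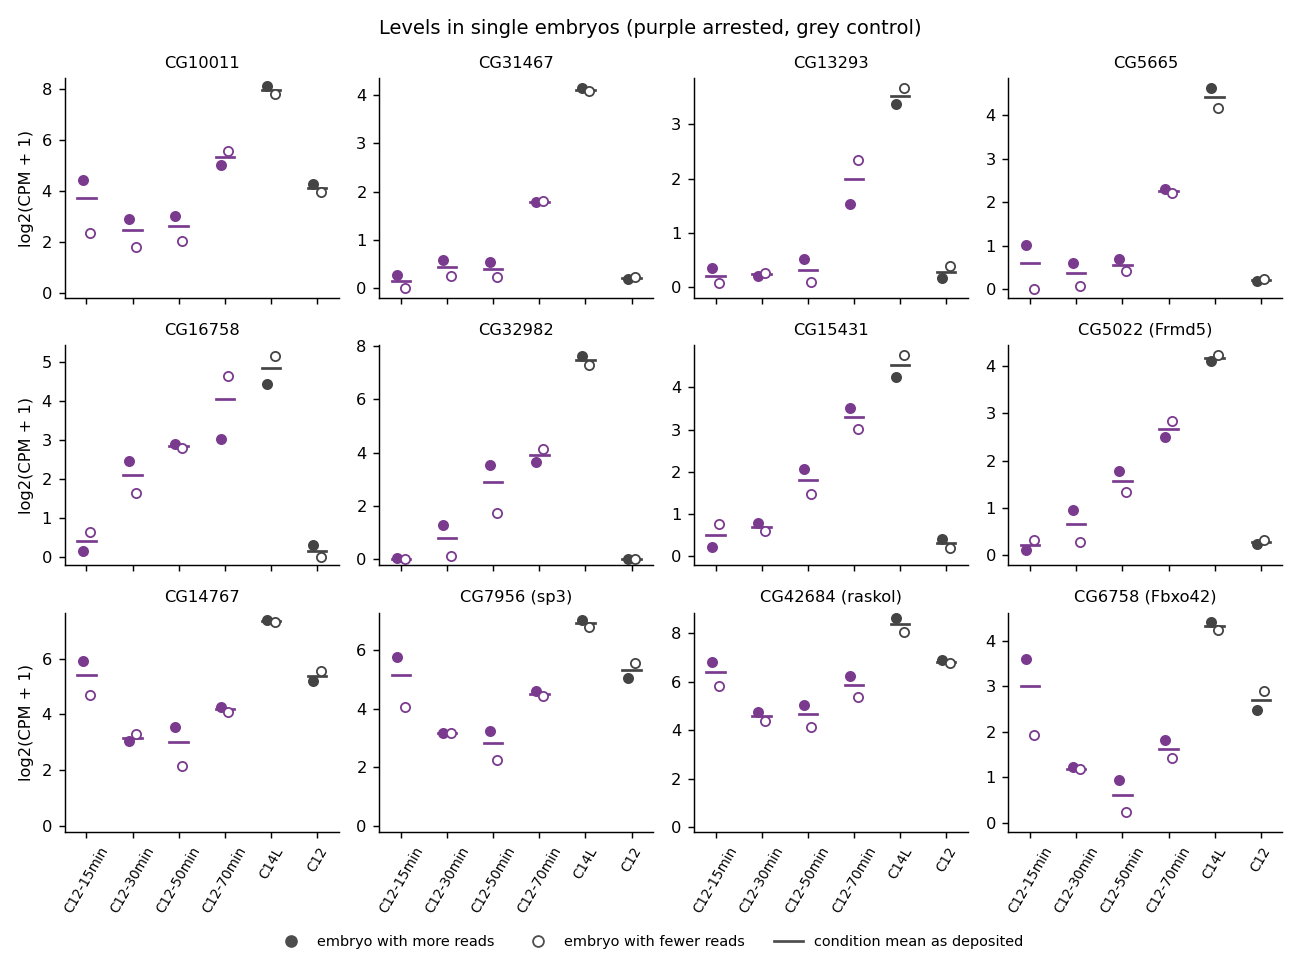
Single embryos of 12 members, log2(CPM + 1): filled points are the embryo with more reads, open points that with fewer, and bars the deposited condition mean, for the 4 arrested conditions (purple) and for C14L and C12 (grey). The top row holds members called higher at C12-70min than at C12-50min, the middle row members called higher and the bottom row members called lower at C12-50min than in embryos labelled C12-15min.

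Between 50 and 70 min after mitosis 11 most members were higher, whatever their stock in C12. By condition means, 104 of 151 were higher at C12-70min than at C12-50min by a fold change above 1.5, where 11.6% of all genes were, and 1 was lower, where 6.77% were. Among genes with at least 10 CPM in some condition the shares were 19.8% higher and 17.2% lower. The median member differed by 0.84 on the log2 scale and the median of all genes by 0. Over the 3737 genes that had 10 CPM or more in all 8 conditions, the median stood at -0.13, 0.12 and 0.02 from C12 at C12-70min, C12-50min and C12-15min. Centred on it, 114 members were higher at C12-70min than at C12-50min, and 30 were higher and 77 lower at C12-50min than in embryos labelled C12-15min. Of 150 members with recovered embryos, 108 (72%) had both C12-70min embryos above both C12-50min embryos, where 21.2% of all recovered genes and 27.5% of those with at least 10 CPM did, and 2 had both below, where 11.3% and 30.4% did. The higher members were 39 of the 53 under 1 CPM in C12, 39 of the 60 with 1 to 10 CPM and 26 of the 38 with at least 10 CPM.

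The same limits, with the upper limit on C12-70min among them, were met by 415 genes with other names. Of these, 283 (68.2%) were higher at C12-70min than at C12-50min. Of the 1515 remaining CG genes with 10 CPM in C14L, 228 (15.0%) were. Without the C12-50min embryo with fewer reads, in which the members summed to 497 CPM, the count of higher members was 69, and without any other single embryo it was 97 to 124.

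The limma fit called 6 of 148 members higher and 0 lower at C12-70min than at C12-50min. Of genes tested, 3.18% were higher and 2.05% lower, so the share of members called higher was near that of all genes tested. At an unadjusted p under 0.05, 30 members (20.3%) were higher and 0 lower, where 12.7% of genes tested were higher and 8.86% lower. The 6 were CG10011 (log2 difference 2.76 ± 0.669 SE, adjusted p = 0.0475), CG5665 (1.70), CG13293 (1.63), CG15772 (1.53), CG31467 (1.40 ± 0.269 SE, adjusted p = 0.0241) and CG1246 (1.40). The call of CG5665 was lost in all 8 alternatives, and each of the other 5 was kept in 1 to 3 of them. Leaving out the embryo with fewer reads of C12-50min or of C12-70min gave 0 calls each, and leaving out the embryo with more reads gave 3 and 2. With a pseudocount of 0.1 in place of 1 the fit called 0 members.

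CG10011 (3R, 28607939 to 28635099, minus strand) had 31.2 and 46.7 CPM at C12-70min, against 7.18 and 3.08 CPM at C12-50min. Its embryos labelled C12-15min had 20.7 and 4.08 CPM and its C12 embryos 18.3 and 14.6 CPM. The 70 min embryos were thus above every other arrested embryo and above C12, and well below the 276 and 226 CPM of C14L. CG31467, a single-exon gene (3R, 10705170 to 10706863, minus strand), had 2.42 and 2.48 CPM at C12-70min against 0.455 and 0.174 CPM at C12-50min. CG5665 had 3.92 and 3.59 CPM against 0.621 and 0.326 CPM, and CG13293 had 1.89 and 4.05 CPM against 0.434 and 0.0651 CPM. These 3 stayed at or below about 1 CPM in all arrested embryos up to 50 min. CG15772 had 3.35 and 6.29 CPM at C12-70min against 1.08 and 0.825 CPM at C12-50min. It shares 38.6% of its exon bases with lin-52 on the opposite strand, which had 31.4 CPM in C14L, and whether the counting used strand is not given in the sources used here. CG1246 had 3.62 and 3.81 CPM at C12-70min against 1.18 and 0.456 CPM.

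CG4554 (2R, 22483303 to 22492033) was not called, with 26.6 and 38.0 CPM at C12-70min against 15.2 and 4.64 CPM at C12-50min, although its embryos did not overlap. The only member with a mean lower by more than 1.5-fold at 70 min was CG13465, with 15.9 and 34.0 CPM at C12-70min against 57.4 and 19.0 CPM at C12-50min, and its embryos overlapped. CG42232, with 26.2 and 42.9 CPM at C12-70min against 52.9 and 34.8 CPM at C12-50min, differed by -0.34 with overlapping embryos.

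**Figure D4:**
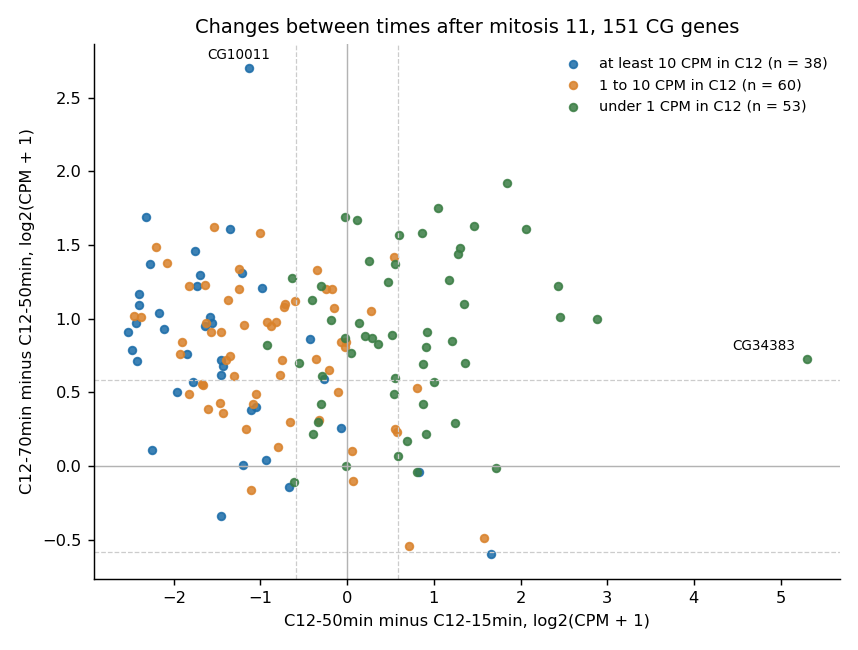
Change of each member from 15 to 50 min (horizontal) and from 50 to 70 min after mitosis 11 (vertical), as differences of condition means on the log2(CPM + 1) scale, with dashed lines at a fold change of 1.5. Blue and orange points (at least 10 and 1 to 10 CPM in C12) lie mostly left of 0 and green points (under 1 CPM) mostly right of it, while all 3 sets lie mostly above 0 on the vertical axis.

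At the last time the means of most members were within the fold limit of C12 or above it, and well below C14L. Against C12, 67 members were higher at C12-70min by a fold change above 1.5 (16.8% of all genes, 23.5% of those with at least 10 CPM in some condition) and 35 lower (18.6% and 47.4%). Against C14E, 19 were higher (7.5% and 7.6%) and 59 lower (10.7% and 27.5%), with a median difference of -0.30. The levels in C12 and C14E helped to choose the members, so these counts are a description and the shares beside them test nothing. An embryo arrested in cycle 12 has fewer nuclei than one in cycle 14, and in RNA of whole embryos fewer cells and less RNA per cell cannot be told apart.

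The level at C12-70min was a median 13.5% of that in C14L (range 0.334% to 85.1%), with 46 members under 10%, 37 at 20% or more and 4 at 50% or more. The percentages use the C14L level that chose the members, so they are a description. CG3368 (3R, 27283780 to 27287448, plus strand) came closest, with 14.8 and 17.5 CPM at C12-70min and 21.5 and 16.5 CPM in C14L. Its C12-50min embryos were unlike, at 8.63 and 0.911 CPM. CG4630 reached 70.4% with 11.8 and 12.9 CPM at C12-70min and 14.3 and 20.8 CPM in C14L. CG16758 reached 56.2%, with 7.20 and 24.4 CPM at C12-70min and 20.9 and 35.2 CPM in C14L, so that 1 arrested embryo lay inside the control range and the other below it. CG32815 reached 55.6% and CG15772 42.3%.

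At the low end CG34025 (3L, 2959722 to 2961049, minus strand) had 0.0758 and 0 CPM at C12-70min, a few reads in 1 embryo, and 13.8 and 8.85 CPM in C14L. No arrested embryo of it exceeded 0.102 CPM. CG45263 reached 1.73%, CG3097 2.75%, CG11327 3.14% and CG10166 3.60%. CG10166 is Dpm1, the dolichol-phosphate mannose synthase that feeds mannose into glycoprotein synthesis, with 1.33 and 1.02 CPM at C12-70min and 34.9 and 30.3 CPM in C14L. The X-linked neighbours CG15772 (42.3%) and CG3097 (2.75%), whose starts lie 13606 bases apart, thus stood near opposite ends of the range. CG15772 shares 38.6% of its exon bases with lin-52, which had 31.4 CPM in C14L against 11.4 CPM for CG15772. Any part of lin-52 reads in its level was not tested.

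**Figure D5:**
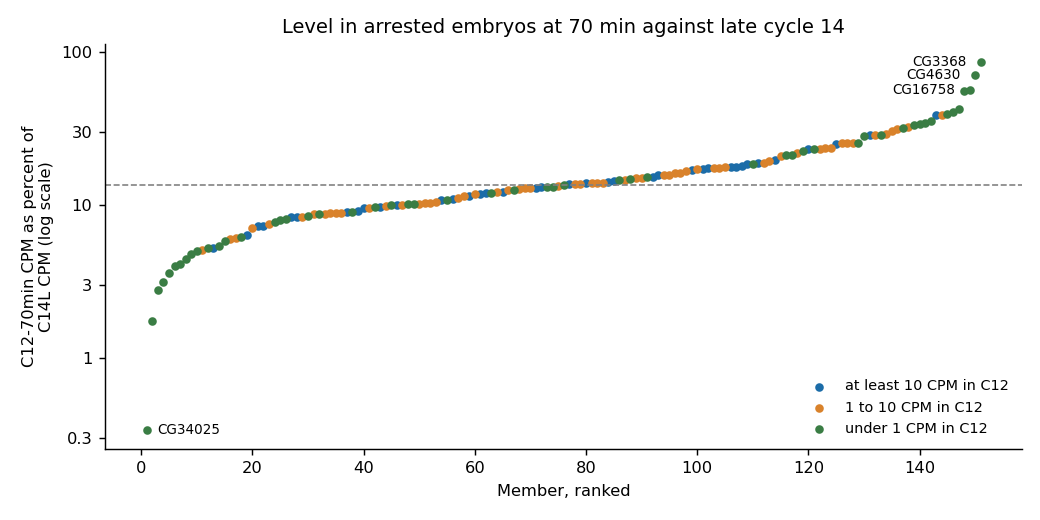
CPM at C12-70min as percent of CPM in C14L for the 151 members in rank order (log axis), coloured by level in C12, with the median of 13.5% dashed. The 4 members above 50% and the 5 lowest members, down to 0.334%, all had under 1 CPM in C12.

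A role could be given from a current name or synonym for 29 members, and none is given for the other 122. These 29 were put into groups after their values had been seen, so the counts describe the groups and test nothing. The largest was RNA processing and modification, with 11 members. It holds CG6379 (Cmtr1), which methylates the ribose next to the messenger RNA cap, and CG9125 (Rai1), which removes faulty caps. It further holds 4 genes for enzymes that modify transfer RNA, CG6388 (Trm1), CG10189 (Ctu2), CG14544 (Trmt61) and CG10050 (Dtwd2). The remaining 5 are named after human proteins: CG7544 (METTL16, a methyltransferase of U6 RNA), CG1239 (BCDIN3D, a methyltransferase acting on a transfer RNA end), CG8414 (NOL9, a kinase in ribosomal RNA processing), CG9630 (DDX55, a helicase of ribosome assembly) and CG6937 (NIFK, a nucleolar protein). Of the 11, 0 were higher and 9 lower at C12-50min than in embryos labelled C12-15min by condition means. Of all members 50.3% were lower at this step, of all genes 17.6%, and of those with at least 10 CPM in some condition 44.3%. The 11 had 0.986 to 34.6 CPM in C12. Of members with 1 to 10 CPM there, 66.7% were lower, and of those with at least 10 CPM, 86.8%. Whether the group differs from members of like stock was not tested. At C12-70min, 8 were higher and 0 lower than at C12-50min. Higher at that step were 68.9% of all members, 11.6% of all genes and 19.8% of those with at least 10 CPM. In 10 of the 11 both C12-70min embryos were above both C12-50min embryos (72% of all members, 21.2% of all recovered genes, 27.5% of those with at least 10 CPM). In 3 of the 11 both C12-50min embryos were below both embryos labelled C12-15min (22.5%, 17.1% and 45%).

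Cmtr1 (X, 4097592 to 4101031, minus strand) had 15.2 and 1.58 CPM at 15 min, 2.70 and 0.835 CPM at 30 min, 1.78 and 1.17 CPM at 50 min and 2.95 and 3.41 CPM at 70 min. In controls it had 4.45 and 12.1 CPM in C12, 1.69, 3.25 and 0.890 CPM in C13 and 76.1 and 49.9 CPM in C14L. Its high mean in embryos labelled C12-15min thus lay in 1 embryo, while the 70 min embryos were above all 4 of those at 30 and 50 min. Trmt61 was the group's only call in the limma fit, lower at C12-50min (4.03 and 2.04 CPM) than in embryos labelled C12-15min (12.7 and 7.64 CPM), a difference of -1.48 (adjusted p = 0.0488). METTL16 (CG7544) had 4.30 and 3.81 CPM at C12-70min against 0.993 and 0.391 CPM at C12-50min, and 41.4 and 38.0 CPM in C14L. NIFK (CG6937) had 31.0 and 3.77 CPM in embryos labelled C12-15min, the same contrast between embryos as Cmtr1.

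Of the 6 members of protein assembly and trafficking, 0 were higher and 5 lower at C12-50min than in embryos labelled C12-15min by condition means. Of all members 50.3% were lower, and of all genes 17.6%. All 6 had at least 2.44 CPM in C12. Of members with 1 to 10 CPM there, 66.7% were lower, and of those with at least 10 CPM, 86.8%. At C12-70min, 5 of the 6 were higher and 0 lower than at C12-50min, against 68.9% of all members and 11.6% of all genes higher. In 2 of the 6 both C12-50min embryos were below both embryos labelled C12-15min (22.5% of all members, 17.1% of all recovered genes, 45% of those with at least 10 CPM in some condition). In 5 of the 6 both C12-70min embryos were above both C12-50min embryos (72%, 21.2% and 27.5%). They are CG2046 (PSMG1, a proteasome assembly chaperone), CG16908 (Tti1, which helps large kinases of the PI3-kinase-like family to mature), CG8270 (Bulli, a partner of the Mon1 and Ccz1 exchange factor for Rab7), CG11396 (TRAPPC12 of human transport complexes), CG4074 (DSCR3, a subunit of the human retriever complex) and Fbxo42. Bulli had 5.78 and 6.11 CPM at C12-70min against 2.81 and 1.13 CPM at C12-50min, and 35.8 and 32.0 CPM in C14L. Tti1 had 9.39 and 11.5 CPM at C12-70min against 5.15 and 2.13 CPM at C12-50min. In both genes the 70 min embryos lay above those at 50 min without overlap.

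The 8 members of signalling, membrane and cytoskeleton were all higher in mean at C12-70min than at C12-50min (68.9% of all members, 11.6% of all genes). At C12-50min against C12-15min they were split 3 higher (21.2% and 8.59%) and 4 lower (50.3% and 17.6%). The 4 lower ones are phosphatase relatives and a GTPase regulator with a stock in C12: raskol, CG7956, CG14411 (a myotubularin relative) and CG12091 (PPTC7, a mitochondrial phosphatase in human). CG12091 had 8.19 and 2.99 CPM at C12-50min against 63.3 and 10.7 CPM in embryos labelled C12-15min. The other 4, kramer, Frmd5, tei and Dred, were under 1 CPM in C12, and both C12-50min embryos were above both embryos labelled C12-15min in each. Of all members under 1 CPM in C12, 52.8% were so, and of all recovered genes 19.6%. Of the 4 metabolic and lysosomal members (Dpm1, Hibch of valine breakdown, Sgsh of heparan sulfate breakdown and CG31548, related to the human dehydrogenase DHRS4), 0 were higher and 2 lower at C12-50min, and 2 were higher and 0 lower at C12-70min. The shares of all members and all genes at these steps are those given beside the 8.

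In the controls, many members were lower in C13 than in C12 before the late increase that chose them. From cycle 12 to cycle 13, 7 were higher (4.14% of all genes) and 58 lower (11%) in C13 than in C12 by a fold change above 1.5. These are 4.64% and 38.4% of the members. Of the 415 genes of other names that met the limits, 5.54% were higher and 35.2% lower. Of the 1515 remaining CG genes with 10 CPM in C14L, 10.2% were higher and 21.2% lower. The level in C12 helped to choose the members, so the control step is a description. In the arrested conditions 20 members were higher (4.67% of all genes, 9.52% of those with at least 10 CPM in some condition) and 83 lower (16.3% and 40.7%) at C12-30min than in embryos labelled C12-15min. Without overlap of embryos these were 12 (7.95%, against 10.7% of all recovered genes and 18.8% of those with at least 10 CPM) and 42 (27.8%, against 16.2% and 40.8%). Neither the control step nor the arrested step was tested against the other.

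The members lay on all major arms: 46 on 3R, 34 on 2R, 30 on 3L, 26 on 2L, 14 on X and 1 on 4. The X share of 9.27% compares with 18.1% among the 1515 remaining CG genes with 10 CPM in C14L. The members had a median span of 2507 bases and a median of 4 exons in the transcript with most exons, against 2234 bases and 3 exons for those CG genes and 4470 bases and 5 exons for the 415 genes of other names that met the limits. No introns were annotated in 17 of the 151. At least 20% of the exon bases were shared with another gene in 9 members, and in 2 of these, CG15772 and CG5044 (Hibch), that gene had at least 10 CPM in C14L (lin-52 and Cog2, each on the opposite strand).

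Starts of 2 members lay within 20 kb of each other in 19 pairs that involved 32 members. The members of a chain of 4 on 3L, CG6602, CG13295, CG13293 and CG10469 (6072139 to 6093313), were all under 1 CPM in C12, with C14L means of 15.8, 28.9, 10.6 and 10.8 CPM and C12 means of 0.0259, 0.112, 0.213 and 0.897 CPM. CG6602 had 1.47 and 0.543 CPM at C12-50min against 0 reads in both embryos labelled C12-15min, while CG13293 had at most 0.434 CPM up to 50 min and 1.89 and 4.05 CPM at C12-70min. The pair CG5618 and CG5665 (starts 5063 bases apart on 3L) held a call at each step. CG5618 was called higher at C12-50min and had 2.82 and 3.79 CPM at C12-70min. CG5665 was called higher at C12-70min, a call lost in all 8 alternatives, and the difference between the 2 genes was not tested.

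Over the 8 condition means and among 5586 genes with at least 10 CPM in C14L, the genes most like the mean profile of the members were CG9630 (Pearson r = 0.995), CG11396 (r = 0.995), CG31522 (r = 0.994), Rint1 (r = 0.994) and CG6654 (r = 0.993). The first 2 are members, and 29 of the 100 most similar genes were. The means share controls and scaling, and the profile is dominated by C14L, so r is a description. Rint1, a vesicle tethering factor, had 0.636, 0.294, 0.570 and 1.68 CPM at 15, 30, 50 and 70 min after mitosis 11, and 0.568, 0.321, 1.98 and 14.6 CPM in C12, C13, C14E and C14L.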

How the data were processed

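Polyadenylated RNA of single embryos was sequenced. The authors trimmed reads with Trim Galore 0.6.0, aligned them with STAR 2.5.3a to dm6 (BDGP6), counted uniquely aligned reads with featureCounts (Subread 1.6.0) and deposited, per gene and condition, the log2 of the mean CPM plus 1. Whether counting used strand is not given in the sources used here. The deposited log2 values (8 columns) were turned back into CPM. Reads of each embryo were recovered from the decimals: total reads from the smallest steps of a column, then the only whole-number pair of reads (3 numbers for C13 and C14E) that gives a value to 9 decimals.

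Differences of condition means were counted above a fold change of 1.5, pseudocount 1, without a filter. limma 3.58.1 (R 4.3.3, trend, Benjamini-Hochberg) was fitted to log2(CPM + 1) of 12 recovered embryos in 6 conditions. The genes tested were those recovered in all 12 with at least 1 CPM in at least 1 embryo. On simulated data, 2227 of 2394 means gave a single solution, and all 2227 were right. In 10 simulated draws the fit called all 200 genes changed 4-fold, with 4.64% false calls on average. Those draws gave every condition the same spread, unlike the embryos labelled C12-15min, so they do not show how the fit performs on these data. Embryos are separate animals. Annotation was Ensembl 115. Members and lists were chosen with earlier results of these data known. Python 3.11.15, numpy 2.4.6 and pandas 2.3.3 were used. The rule for named genes took those with the largest margins, CPM, percent of C14L and changes, those nearest the limits, neighbours within 20 kb and the most similar profiles, and genes called or given a role were added after their values were seen. Depth was 35957712 to 57998963 assigned reads per embryo. No sequences are shown.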

Additional observations from a re-analysis of the deposited data

How the results depend on the processing

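No paired analysis was possible because the columns carry no replicate numbers. The rule took 269 genes with a margin of 1 and 80 with a margin of 2 on the log2 scale in place of 1.5 (151). Higher at C12-50min than at C12-15min were 12 members with a pseudocount of 5 and 19 at a fold change above 2 (32), and higher at C12-70min than at C12-50min 47 and 53 (104). In limma, C12-50min against C12-15min gave 0 higher and 1 lower without a filter, 0 higher and 0 lower with only the 4 embryos compared, and 10 higher with a pseudocount of 0.1 (6 and 13). C12-70min against C12-50min gave 2, 1 and 0 higher under these settings (6). With 1 embryo left out, these counts ranged over 21 to 46 and 22 to 89 (means, 50 min higher and lower), 69 to 124 (means, 70 min), 0 to 9 and 0 to 59 (limma, 50 min) and 0 to 3 (limma, 70 min). Counts of lower members, and means with 1 embryo left out, were added after seeing the data. Of the results for single members under all alternatives, 124 lost their call, 76 kept it and 0 changed sign. A lone embryo was assumed to vary like those of other conditions.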
